A study of Mus musculus with 4 samples.

Results

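The genes described here are 37 genes of glycolysis and of the response to low oxygen, found by symbol in a table of 56691 genes. Of these, 25 encode glycolytic enzymes and the transporters of glucose and lactate. The other 12 are the alpha subunits of hypoxia-inducible factor and genes, outside glycolysis, that the factor is known to activate. RNA was sequenced from wild-type primary mouse cardiac fibroblasts, taken from hearts at postnatal days 1 to 3. The MGT+shScd1 group received MGT, the cardiac transcription factors Mef2c, Gata4 and Tbx5, together with a short hairpin RNA against Scd1, the gene of a fatty acid desaturase. The MGT+shNT group carried the same 3 factors with a non-targeting hairpin. Both were collected at day 7 of reprogramming towards induced cardiomyocyte-like cells, with 2 libraries each. All 4 libraries thus carried MGT, and the labels name neither the vector that drives the factors nor whether replicates came from separate cultures. The p-values therefore measure the spread between these libraries, which may be technical.

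Glycolysis splits glucose into pyruvate in the cytosol and yields ATP without oxygen, and lactate dehydrogenase then turns pyruvate into lactate for export. Hypoxia-inducible factor is a transcription factor whose alpha subunit is hydroxylated and degraded when oxygen is present. In low oxygen it accumulates, binds DNA with its partner Arnt and activates most glycolytic genes together with genes of vessel growth, mitophagy and matrix. Adult heart muscle burns mainly fatty acids, whereas fibroblasts and the newborn heart rely more on glycolysis.

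Genes of both classes moved in both directions. Of the 25 glycolysis genes, 11 rose in MGT+shScd1 cells, 3 fell and 11 did not pass the test. Of the 12 genes of the hypoxia-inducible factor group, 4 rose, 5 fell and 3 did not pass. Calls required an adjusted p below 0.05 in edgeR's quasi-likelihood test over 16234 genes. That rule called 29.3% of all these genes, with 13.1% higher and 16.3% lower in MGT+shScd1 cells. The share of glycolysis genes that rose was 44%, against that 13.1%, and the share that fell was 12%, against that 16.3%. Among the 2951 genes at or above the members' median level, 18.3% rose and 28.8% fell. In the hypoxia-inducible factor group the shares were 33.3% and 41.7%, against the same 13.1% and 16.3%. The 4 rises were 2 with the replicate number as a block and without either MGT+shScd1 library. The median log2 fold change, MGT+shScd1 over MGT+shNT, was 0.23 over the glycolysis genes and -0.15 over the hypoxia-inducible factor group, beside 0.0001 over all genes tested. The difference between the classes was not tested, since the genes were chosen with earlier results of these data known.

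**Figure D1:**
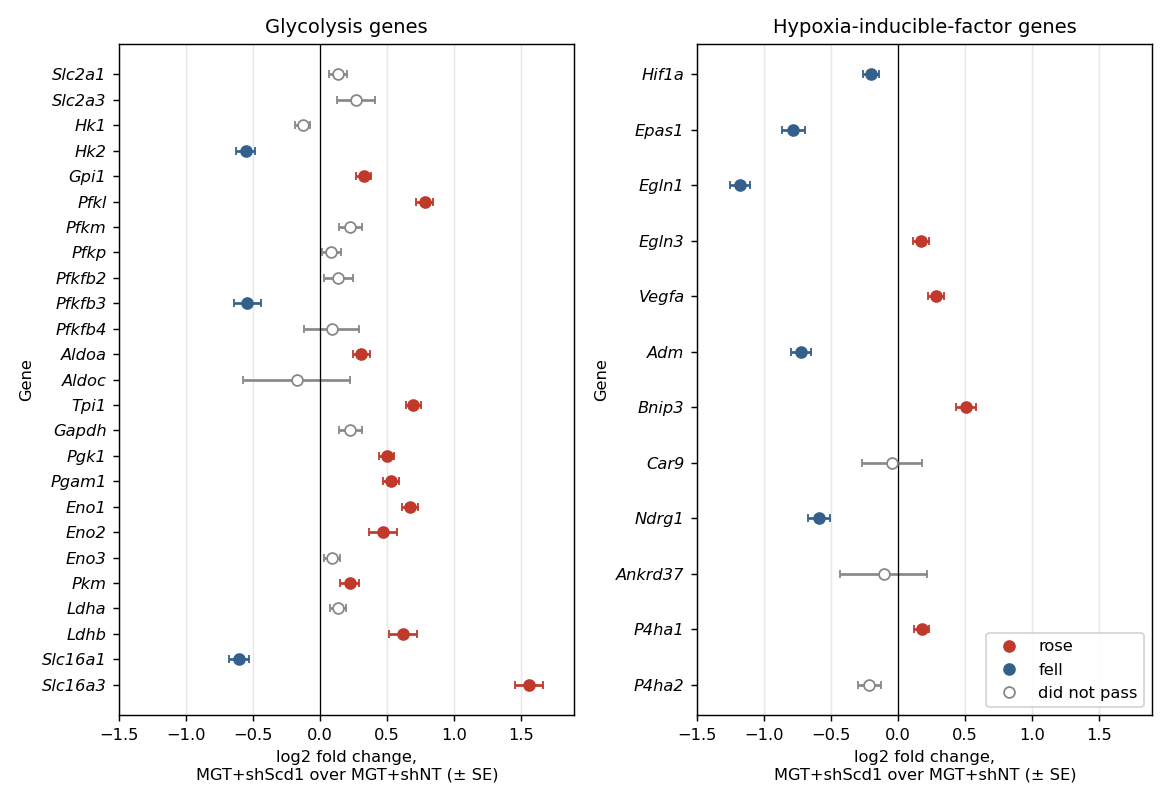
Log2 fold change of each gene, MGT+shScd1 over MGT+shNT, with its standard error as a horizontal bar, for the glycolysis genes in pathway order (left) and the hypoxia-inducible factor group (right). Filled red points rose, filled blue points fell and open points did not pass. Slc16a3 at 1.56 and Egln1 at -1.18 mark the 2 ends.

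The 4 promoter windows below belong to the genes with the largest rise and the largest fall in each class that had an entry among the RefSeq promoters. They are shown because genes that moved in opposite directions carry the same short core of the site that hypoxia-inducible factor binds. Each is 250 bases before the start annotated in RefSeq, 5′ to 3′ on the gene's own strand in GRCm38.p6, in lower case. That start can differ from the GENCODE gene positions printed elsewhere. The Slc16a3 window lies wholly inside the gene's GENCODE span, and the Egln1 and Bnip3 windows lie partly inside theirs. Capitals mark ACGTG and GCGTG on either strand, so that CACGT and CACGC are capitals too. Slc16a3 and Bnip3 rose, and Slc16a1 and Egln1 fell.
Slc16a3, chr11:120948817-120949066, plus strand: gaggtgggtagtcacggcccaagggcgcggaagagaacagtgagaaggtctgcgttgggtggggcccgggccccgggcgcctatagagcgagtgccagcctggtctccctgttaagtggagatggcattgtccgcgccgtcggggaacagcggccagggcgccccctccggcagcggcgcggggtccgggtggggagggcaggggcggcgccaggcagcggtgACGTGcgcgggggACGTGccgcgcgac
Slc16a1, chr3:104638414-104638663, plus strand: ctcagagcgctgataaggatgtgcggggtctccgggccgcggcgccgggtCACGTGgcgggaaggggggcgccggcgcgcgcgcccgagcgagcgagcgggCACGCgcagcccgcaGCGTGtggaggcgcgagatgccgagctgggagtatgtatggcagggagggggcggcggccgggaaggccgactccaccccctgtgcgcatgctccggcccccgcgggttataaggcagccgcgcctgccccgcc
Bnip3, chr7:138909507-138909756, minus strand: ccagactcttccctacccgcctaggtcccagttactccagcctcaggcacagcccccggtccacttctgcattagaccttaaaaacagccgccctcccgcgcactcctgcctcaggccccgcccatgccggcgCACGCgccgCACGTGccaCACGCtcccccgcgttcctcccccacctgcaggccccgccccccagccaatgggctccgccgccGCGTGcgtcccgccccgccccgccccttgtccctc
Egln1, chr8:124949255-124949504, minus strand: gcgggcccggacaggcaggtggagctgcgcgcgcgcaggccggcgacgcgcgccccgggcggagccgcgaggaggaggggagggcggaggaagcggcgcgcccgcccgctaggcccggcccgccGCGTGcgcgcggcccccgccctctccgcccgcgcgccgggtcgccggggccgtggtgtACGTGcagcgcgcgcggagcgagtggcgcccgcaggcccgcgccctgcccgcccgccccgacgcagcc

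The Slc16a3 window held ACGTG at 27 to 23 and at 14 to 10 bases before the start. In Slc16a1 and Bnip3 a palindrome, CACGTG, gave overlapping ACGTG matches on both strands. It lay at 200 to 195 bases before the start in Slc16a1 and at 108 to 103 in Bnip3. The Egln1 window held ACGTG at 68 to 64 bases before the start. Over windows of 300 bases (250 before to 50 after the start), 34 of the 37 genes had 49 windows, since some have several starts. ACGTG on either strand was present in 28 of these 49 windows (57.1%), against 19.6% of all 32851 windows. GCGTG was present in 29 of 49 (59.2%), against 32.4%. Base composition differed too, with a median GC content of 61.3% in the members' windows and 52.7% in all windows. Among all windows with a GC content from 56.3% to 67.3%, the middle range of the members, 25.9% held ACGTG and 50.4% held GCGTG. Counted by gene, ACGTG stood in at least 1 window of 9 of 15 genes that rose, 5 of 6 that fell and 10 of 13 that did not pass. Over all promoters it did so in 5886 of 27025 genes. A match describes letters in a window and not a bound site.

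The knockdown target was checked first. Scd1 had 6.64 and 8.04 CPM (counts scaled to library size) in MGT+shScd1 cells, against 84.4 and 63.5 CPM in MGT+shNT cells, a log2 fold change of -3.34. Total counts per library lay between 15135227 and 20894972. Replicate 2 of MGT+shNT stood apart in its ribosomal RNA gene Rn18s-rs5, at 3.32% of counts against 0.129% to 0.199% in the other 3 libraries. Its Malat1 share was 0.541%, against 0.157% to 0.173% in the others. The MGT+shNT libraries also differed more from each other, with a chi-square per degree of freedom of 43.6, against 2.82 for MGT+shScd1. Without the 10 most deviant genes of each group, it was 6.01 and 2.63. Ppargc1a, a coactivator of mitochondrial genes, averaged 14.6 ± 0.868 CPM in MGT+shScd1 cells and 3.26 ± 1.32 CPM in MGT+shNT cells (2.22, adjusted p = 5.03e-06). Of 16 cardiomyocyte markers tested, 8 rose and 4 fell. Beside these and the marker counts below, 13.1% of all genes tested rose and 16.3% fell. The smallest adjusted p-values were those of the sarcomere genes Csrp3 (2.55), Tnnc1 (2.44), Actn2 (1.52) and Myh6 (1.31), which rose. The 4 that fell, chosen after their values were seen, were the sarcomere genes Myl2 (-2.34), Tnnt2 (-0.36) and Myl7 (-0.31) and the natriuretic peptide gene Nppa (-1.35). All cardiomyocyte markers together summed to 8054 and 8082 CPM in MGT+shScd1 cells and 7154 and 8107 CPM in MGT+shNT cells, which overlap. Of 15 fibroblast markers, 1 rose and 11 fell, led by Pdgfrb (-1.46), Fbln1 (-1.34) and Col1a2 (-1.03), with Postn (1.03) the one that rose. All fibroblast markers together summed to 27939 and 29280 CPM in MGT+shScd1 cells and 38643 and 37577 CPM in MGT+shNT cells. Of 20 macrophage markers, 1 rose and 14 fell, led by Lyz2 (-2.20), Cd68 (-2.47), Ctss (-1.54) and Ms4a7 (-2.45). The one that rose, named after its value was seen, was C1qb (0.65), and 5 did not pass (Csf1r, Fcgr1, C1qa, Aif1 and Laptm5). The summed level of all 20 was 264 and 266 CPM in MGT+shScd1 cells and 941 and 826 CPM in MGT+shNT cells, and none was at 0 in all libraries. Lyz2 alone had 126 and 118 CPM of these sums in MGT+shScd1 cells, and 568 and 552 CPM in MGT+shNT cells. Without MGT+shNT replicate 1 the macrophage falls numbered 9, without MGT+shScd1 replicate 1 they numbered 8, and with limma on either FPKM scale they numbered 6. Of 10 endothelial markers tested, 0 rose and 2 fell, Vwf (-2.40) and Tek (-0.79), and leaving out either MGT+shScd1 library left 1 fall. On both FPKM scales 0 endothelial markers fell, but those tests kept only genes at 1 FPKM or more in at least 2 libraries. Vwf, at most 0.21 FPKM, was therefore not tested there. Nor were the macrophage markers Ptprc, Itgam, Mrc1 and Cx3cr1, which fell in the main test. The cardiomyocyte falls numbered 2 without MGT+shScd1 replicate 2. The part of these markers in the values of the glycolysis and hypoxia genes was not tested. In these bulk samples, fewer cells of a type and less RNA per cell cannot be told apart.

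Glucose enters cells through facilitative transporters. Slc2a1, which encodes the widely expressed transporter GLUT1, had 64.2 and 62.1 CPM in MGT+shScd1 cells and 58.0 and 57.2 CPM in MGT+shNT cells. Both MGT+shScd1 libraries were the higher ones, but the log2 fold change of 0.13 (SE 0.07) did not pass (adjusted p = 0.168). Slc2a3, which encodes the high-affinity transporter GLUT3, averaged 11.6 ± 0.054 and 9.56 ± 1.15 CPM (SD, n = 2 each), and likewise did not pass (0.27, adjusted p = 0.174).

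Hexokinases trap glucose in the cell by phosphorylation. Hk2, the inducible form abundant in muscle, fell. It had 61.8 and 62.1 CPM in MGT+shScd1 cells and 86.6 and 95.9 CPM in MGT+shNT cells, with no overlap, and the change was -0.56 (SE 0.07, adjusted p = 5.74e-05). Hk1, the constitutive form, averaged 136 ± 0.71 and 148 ± 0.52 CPM, a log2 fold change of -0.13 that did not pass (adjusted p = 0.109). Levels compared between the genes used FPKM, which scales counts to gene length and library total. On that scale Hk2 made up 39.4% and 39.7% of the summed hexokinase FPKM in MGT+shScd1 cells, against 45.5% and 48.0% in MGT+shNT cells. The summed level of both was 27.1 ± 0.09 FPKM in MGT+shScd1 cells and 31.5 ± 0.13 FPKM in MGT+shNT cells.

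Gpi1, the isomerase of the second step, rose to 423 ± 3.33 CPM in MGT+shScd1 cells, against 338 ± 2.19 CPM in MGT+shNT cells (log2 fold change 0.33, adjusted p = 0.000768). Phosphofructokinase, which follows, is the main control point of glycolysis and is built from liver (Pfkl), muscle (Pfkm) and platelet (Pfkp) subunits. Pfkl (ENSMUSG00000020277), which lies on the minus strand of GRCm38 chromosome 10 between 77986947 and 78010083, had 139 and 144 CPM in MGT+shScd1 cells and 85.8 and 78.4 CPM in MGT+shNT cells. Both MGT+shScd1 libraries lay far above both others, and the log2 fold change was 0.78 (SE 0.07, adjusted p = 1.67e-06). Pfkm averaged 55.2 ± 5.72 and 47.1 ± 2.13 CPM and did not pass (log2 fold change 0.23, adjusted p = 0.0599), and Pfkp overlapped between the groups (0.08, adjusted p = 0.428). The liver subunit was the largest part of the family in MGT+shScd1 libraries and the second largest in MGT+shNT libraries, at 43.8% and 47.5% of the summed FPKM in MGT+shScd1 cells, against 36.5% and 34.3% in MGT+shNT cells. Pfkm, the muscle subunit, made up 37.3% and 33.8% there, against 41.4% and 39.9%. These shares rest on deposited gene lengths of 13401 bases for Pfkp and 3340 for Pfkm, whose longest protein-coding transcripts have 4145 and 2879. In plain counts Pfkm was the smallest part of the family in every library, and Pfkp the largest in the MGT+shNT libraries. Summed over the subunits, the level was 48.0 ± 1.67 FPKM in MGT+shScd1 cells and 33.5 ± 1.68 FPKM in MGT+shNT cells.

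The Pfkfb genes encode bifunctional enzymes that make and remove fructose 2,6-bisphosphate, the strongest activator of phosphofructokinase. Pfkfb3, the form with the highest kinase activity and a known hypoxia target, fell. It had 26.8 and 28.2 CPM in MGT+shScd1 cells and 43.7 and 36.0 CPM in MGT+shNT cells, and the change was -0.54 (SE 0.10, adjusted p = 0.00119). The groups did not overlap, but the call was lost on the log2 scale of FPKM with either pseudocount (adjusted p = 0.0724 and 0.071). The heart form Pfkfb2 (20.8 ± 0.938 and 18.9 ± 0.869 CPM) and Pfkfb4 (5.38 ± 0.923 and 5.03 ± 0.491 CPM) did not pass.

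Aldolase and triose-phosphate isomerase make the triose phosphates. Aldoa, the muscle aldolase, rose to 619 ± 29.8 CPM in MGT+shScd1 cells, against 500 ± 24 CPM in MGT+shNT cells (log2 fold change 0.31, adjusted p = 0.0026). That call was lost without MGT+shScd1 replicate 1 (adjusted p = 0.0905). A second row under the symbol Aldoa, at a neighbouring locus, had 6 and 2 counts in MGT+shScd1 cells and 19 and 1 in MGT+shNT cells and was not tested. Aldoc, the brain form, stayed near 1.36 and 1.55 CPM. Tpi1 (ENSMUSG00000023456, minus strand of chromosome 6, 124810586 to 124814296) had 267 and 265 CPM in MGT+shScd1 cells and 162 and 166 CPM in MGT+shNT cells. These replicates were close and the groups well apart, and the change was 0.70 (SE 0.06, adjusted p = 1.36e-06).

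The later enzymes of the pathway, among which the kinases Pgk1 and Pkm return ATP, include 5 genes that rose (Pgk1, Pgam1, Eno1, Eno2 and Pkm). The other 2 did not pass (Gapdh and Eno3). Pgk1, the first ATP-forming kinase, rose to 274 ± 5.44 CPM in MGT+shScd1 cells, against 194 ± 0.83 CPM in MGT+shNT cells (log2 fold change 0.50, adjusted p = 2.45e-05). Pgam1, the mutase, had 298 and 284 CPM in MGT+shScd1 cells and 207 and 194 CPM in MGT+shNT cells (0.53, SE 0.06, adjusted p = 2.38e-05). Eno1 (ENSMUSG00000063524, plus strand of chromosome 4, 150236721 to 150248879), the ubiquitous enolase, had 454 and 437 CPM in MGT+shScd1 cells and 286 and 273 CPM in MGT+shNT cells (0.67, SE 0.06, adjusted p = 2.75e-06). None of these 3 genes overlapped between the groups. Eno2, the neuronal enolase, rose by 0.47 (adjusted p = 0.00385, and 0.0667 without MGT+shScd1 replicate 2). Eno3, the muscle enolase, averaged 149 ± 1.84 and 140 ± 4.47 CPM and did not pass (0.09, adjusted p = 0.293). Its share of the summed enolase FPKM was 48.4% and 49.7% in MGT+shScd1 cells, against 58.7% and 58.9% in MGT+shNT cells. These sums leave out the counts under the Eno1 copies Eno1b and Gm4735, which would lower that share in every library. They also rest on deposited gene lengths of 5379 bases for Eno1 and 1739 for Eno3, whose longest protein-coding transcripts have 2027 and 1564. In plain counts Eno3 lay below Eno1 in every library, with 2917 and 2897 against 8966 and 8413 in MGT+shScd1 cells. In MGT+shNT cells it had 2956 and 1958 against 5900 and 3901.

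Pkm, the pyruvate kinase, had 910 and 886 CPM in MGT+shScd1 cells and 819 and 722 CPM in MGT+shNT cells. Per length, Pkm averaged 185 FPKM in MGT+shScd1 cells and 149 FPKM in MGT+shNT cells, below Aldoa in every library. That order rests on the deposited gene lengths, 5001 bases for Pkm and 2911 for Aldoa. In CPM, Pkm lay above Aldoa in every library. The Pkm rise of 0.22 (SE 0.07, adjusted p = 0.0269) did not hold when MGT+shScd1 replicate 1 or 2 was left out, nor without MGT+shNT replicate 2. It was also lost on the FPKM scales (adjusted p = 0.0537 and 0.055). Its splice forms share 1 row of the table.

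Gapdh is the usual housekeeping reference, and it was low in the table, at 36.8 and 35.2 CPM in MGT+shScd1 cells and 30.4 and 31.2 CPM in MGT+shNT cells. Its log2 fold change of 0.23 (SE 0.08) did not pass (adjusted p = 0.06). The Gapdh transcript shares sequence with many pseudogenes: 80.3% of its windows of 75 bases occur exactly in transcripts of genes elsewhere in the genome. A total of 54 genes share at least 100 such windows, 51 of them pseudogenes. They held 7315 and 6753 counts in MGT+shScd1 cells and 6379 and 4465 in MGT+shNT cells, between 90.9% and 91.0% of the counts of Gapdh and copies together. Most of these stood under 1 pseudogene, Gm13394, with 6803 and 6370 counts in MGT+shScd1 cells and 5993 and 4193 in MGT+shNT cells. Summed with these copies, an alternative chosen after the values were seen, Gapdh had 407 and 386 CPM in MGT+shScd1 cells and 340 and 344 CPM in MGT+shNT cells. The log2 fold change was then 0.22 (SE 0.06), nearly the same, but it passed (adjusted p = 0.0142). The Gapdh row alone also passed with upper-quartile factors (adjusted p = 0.0234) and with limma on both FPKM scales (0.0302 and 0.0305).

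Eno1 shared 65.4% of its windows with other genes, and 36.5% to 37.1% of its summed counts stood under Eno1b and the pseudogene Gm4735. With these added its log2 fold change was 0.68, beside 0.67 without. Pgk1 shared 67.5% and Pgam1 40.6% of their windows, but their copies held at most 1.03% of the summed counts. In all, 15 of the 25 glycolysis genes and 11 of the 12 genes of the hypoxia-inducible factor group shared no such window with a gene elsewhere. The exception in that group was Bnip3, at 31.0%.

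Lactate dehydrogenase interconverts pyruvate and lactate. Ldha, the subunit that favours lactate formation, had 408 and 391 CPM in MGT+shScd1 cells and 374 and 356 CPM in MGT+shNT cells and did not pass (0.13, SE 0.06, adjusted p = 0.121). With upper-quartile factors it passed (0.19, adjusted p = 0.0344). Ldhb, the heart subunit that favours pyruvate formation, rose. It had 41.5 and 37.8 CPM in MGT+shScd1 cells and 23.5 and 28.5 CPM in MGT+shNT cells (0.62, SE 0.10, adjusted p = 0.000551). Its share of the summed FPKM was 17.3% ± 0.498 in MGT+shScd1 cells and 13.1% ± 1.96 in MGT+shNT cells, so Ldha remained the larger part in every library.

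The 2 monocarboxylate transporters moved in opposite directions. Slc16a3 (ENSMUSG00000025161, plus strand of chromosome 11, 120948480 to 120960868) encodes MCT4, the lactate exporter of glycolytic cells. It had 43.0 and 44.3 CPM in MGT+shScd1 cells and 16.0 and 13.3 CPM in MGT+shNT cells, and its rise of 1.56 (SE 0.10, adjusted p = 1.97e-07) was the largest of all 37 genes. Slc16a1 (ENSMUSG00000032902, plus strand of chromosome 3, 104638668 to 104658462) encodes MCT1, which carries lactate and pyruvate in either direction. It fell to 36.3 and 38.4 CPM in MGT+shScd1 cells, against 57.3 and 56.5 CPM in MGT+shNT cells (-0.61, SE 0.07, adjusted p = 4.58e-05). On the length-scaled level, Slc16a3 made up 49.6% and 49.0% of the pair in MGT+shScd1 cells, against 18.9% and 16.4% in MGT+shNT cells. The sum of the pair was 17.2 ± 0.49 FPKM in MGT+shScd1 cells and 15.1 ± 0.94 FPKM in MGT+shNT cells. Bsg, the gene of basigin, the membrane chaperone both transporters need, fell by 1.80 on the log2 scale. It had 141 and 139 CPM in MGT+shScd1 cells and 481 and 493 CPM in MGT+shNT cells (adjusted p = 3.5e-10).

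**Figure D2:**
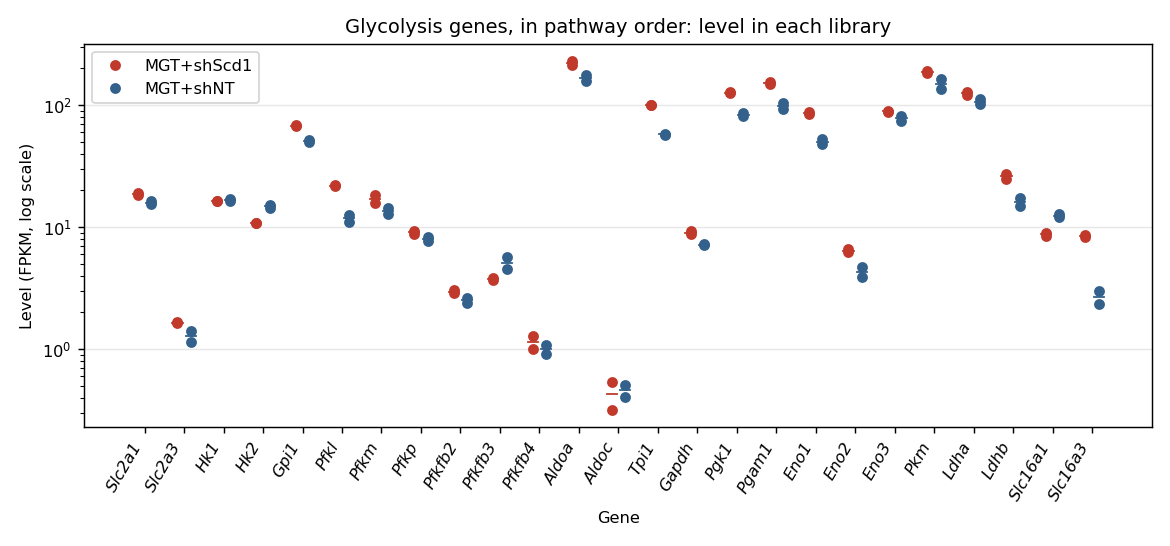
FPKM (log axis) of the 25 glycolysis genes in each library, in pathway order, with MGT+shScd1 libraries left and MGT+shNT libraries right of each tick and a line at each group's mean. The separation is widest for Slc16a3, whose mean was 8.47 FPKM in MGT+shScd1 cells and 2.67 FPKM in MGT+shNT cells, and Hk2, Pfkfb3 and Slc16a1 lie lower in MGT+shScd1 cells.

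**Figure D3:**
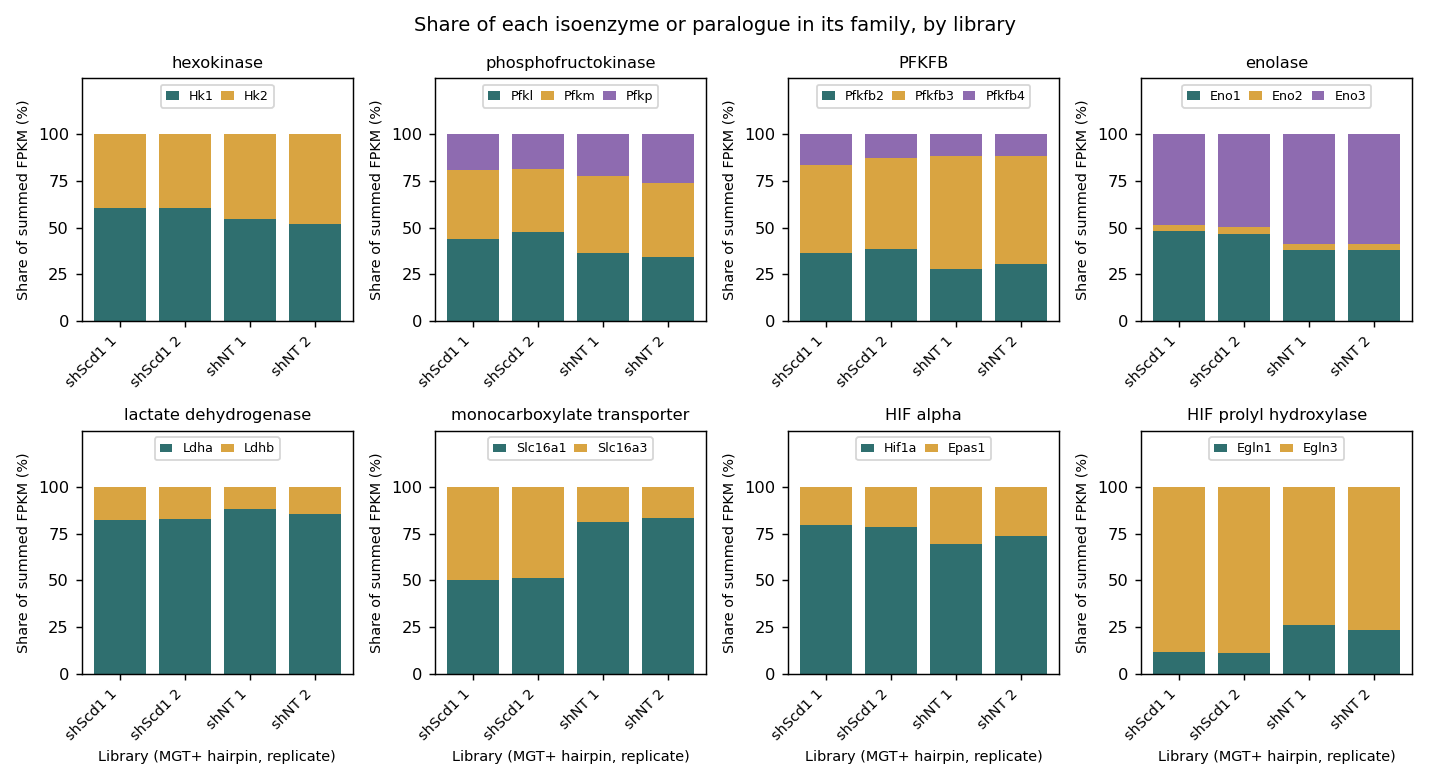
Share of each isoenzyme or paralogue in the summed FPKM of its family (percent), 1 bar per library, with the MGT+shScd1 libraries left of the MGT+shNT libraries. The 2 libraries of a group resemble each other, and the largest shift is that of the monocarboxylate transporters, where Slc16a3 averaged 49.3% in MGT+shScd1 cells and 17.6% in MGT+shNT cells.

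Shares were described and not tested. Shares of plain counts, without scaling to length, kept the direction of the shifts named here. The order within a family could change with the scale, as it did for enolase and phosphofructokinase. The Pfkm difference was then -2.04 percentage points in place of -5.11, and the Ldhb difference 2.36 in place of 4.22.

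In the oxygen-sensing group, both alpha subunits fell. Hif1a had 430 and 449 CPM in MGT+shScd1 cells and 496 and 515 CPM in MGT+shNT cells. That small fall of 0.20 on the log2 scale (SE 0.06, adjusted p = 0.0214) failed when MGT+shScd1 replicate 1 or 2 was left out (adjusted p = 0.232 and 0.101), with upper-quartile scaling (0.0791) and on both FPKM scales (0.21 and 0.208). Epas1 (ENSMUSG00000024140, plus strand of chromosome 17, 86753700 to 86833410) encodes HIF-2alpha, which is abundant in endothelium and other stromal cells. It had 105 and 117 CPM in MGT+shScd1 cells and 209 and 172 CPM in MGT+shNT cells, well apart (-0.78, SE 0.08, adjusted p = 1.63e-05). Beside it, the endothelial markers summed to 28.2 and 29.9 CPM in MGT+shScd1 cells and 40.5 and 31.8 CPM in MGT+shNT cells. Hif1a made up 79.5% and 78.4% of the summed FPKM of the pair in MGT+shScd1 cells, against 69.3% and 73.9% in MGT+shNT cells.

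The 2 prolyl hydroxylases that mark the alpha subunits for destruction, both known targets of the factor, diverged. Egln1 (ENSMUSG00000031987, minus strand of chromosome 8, 124908587 to 124949324) encodes PHD2, the main oxygen sensor. It had 36.1 and 35.2 CPM in MGT+shScd1 cells and 84.4 and 76.5 CPM in MGT+shNT cells, which is -1.18 on the log2 scale (SE 0.08, adjusted p = 1.36e-07). This was the largest fall of all 37 genes. Egln3 (PHD3) averaged 205 ± 0.311 CPM in MGT+shScd1 cells and 182 ± 6.94 CPM in MGT+shNT cells (0.17, adjusted p = 0.0385). The Egln3 call was lost with the replicate number as a block (adjusted p = 0.0511), without either MGT+shScd1 library (0.23 and 0.195), without MGT+shNT replicate 1 (0.119) and with DESeq2 (0.0775). Egln1 made up 11.5% and 11.3% of the summed FPKM of the pair in MGT+shScd1 cells, against 26.1% and 23.3% in MGT+shNT cells.

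The secreted targets also diverged. Vegfa, the growth factor of blood vessels, had 193 CPM in both MGT+shScd1 libraries and 160 and 157 CPM in the MGT+shNT libraries (0.28, SE 0.06, adjusted p = 0.00193). Adm (ENSMUSG00000030790, plus strand of chromosome 7, 110627661 to 110629820), which encodes the vasodilator adrenomedullin, had 67.0 and 68.5 CPM in MGT+shScd1 cells and 119 and 105 CPM in MGT+shNT cells (-0.72, SE 0.07, adjusted p = 7.4e-06). Neither gene overlapped between the groups.

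Among the intracellular targets, Bnip3, a mitochondrial protein that promotes mitophagy, rose and Ndrg1, a stress-response gene, fell. Bnip3 had 52.5 and 54.3 CPM in MGT+shScd1 cells and 37.0 and 38.3 CPM in MGT+shNT cells (0.50, SE 0.08, adjusted p = 0.000225). Ndrg1 had 39.6 and 43.8 CPM in MGT+shScd1 cells and 66.3 and 59.0 CPM in MGT+shNT cells (-0.59, SE 0.08, adjusted p = 0.000135). P4ha1, the collagen prolyl hydroxylase subunit, rose by 0.18 (678 ± 11.6 CPM in MGT+shScd1 cells and 600 ± 1.72 CPM in MGT+shNT cells, adjusted p = 0.0362). That call was lost with the replicate block (adjusted p = 0.0759) and without either MGT+shScd1 library (0.278 and 0.158). Its paralogue P4ha2 averaged 56.1 ± 6.65 and 65.1 ± 1.1 CPM and did not pass (-0.21, adjusted p = 0.0696, and 0.0359 with the block). Car9, a carbonic anhydrase used as a marker of hypoxia, stayed near 3.97 and 4.13 CPM with overlapping groups. Ankrd37, at 1.74 and 1.87 CPM, overlapped as well.

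**Figure D4:**
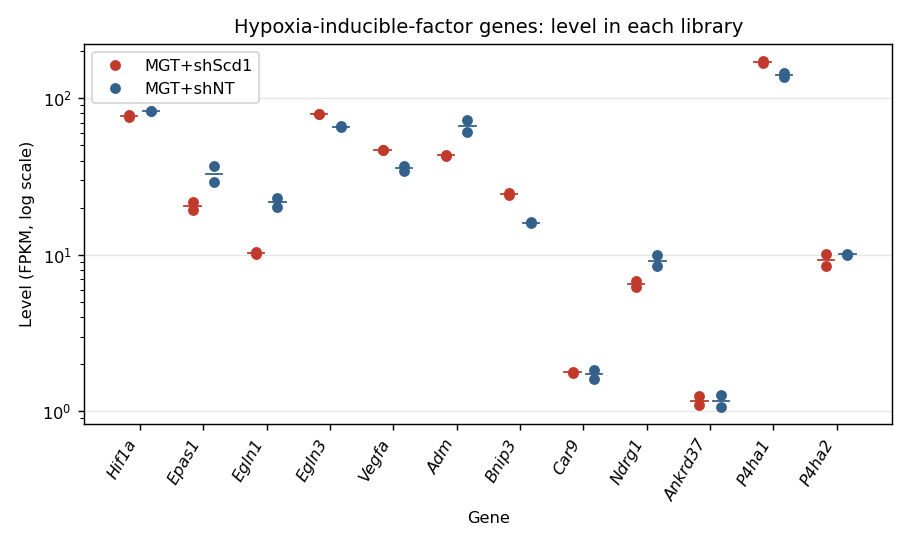
FPKM (log axis) of the 12 genes of the hypoxia-inducible factor group in each library, with MGT+shScd1 left and MGT+shNT right of each tick and a line at each group's mean. Egln1 is the most separated, at a mean of 10.2 FPKM in MGT+shScd1 cells and 21.6 FPKM in MGT+shNT cells, while Car9 and Ankrd37 lie on top of each other.

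Groups did not overlap for 22 of the 25 glycolysis genes (18 higher and 4 lower in MGT+shScd1 cells) and for 10 of the 12 others (4 higher and 6 lower). With 2 libraries a group this is a weak criterion, which 64.3% of all genes tested met (32.0% higher and 32.3% lower). With each library left out in turn, between 9 and 13 glycolysis genes rose and 3 fell, and between 2 and 4 genes of the hypoxia-inducible factor group rose and between 4 and 6 fell. The count of 2 was reached without either MGT+shScd1 library and also with the replicate block.

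**Figure D5:**
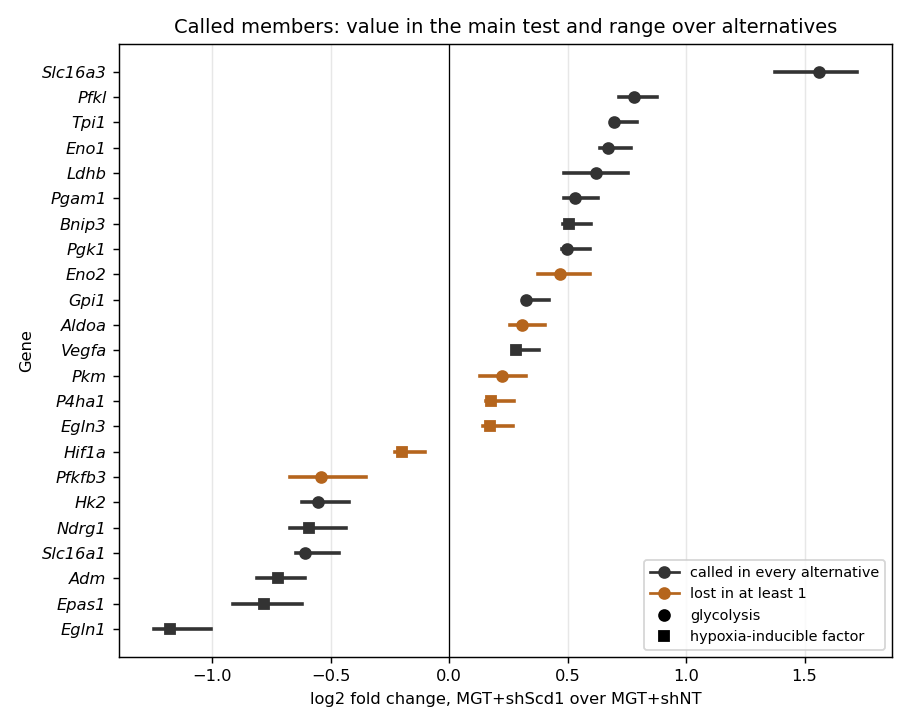
Log2 fold change, MGT+shScd1 over MGT+shNT, of the 23 called genes (points) with the range over 12 alternative analyses (lines). Black genes were called in every alternative (16 genes) and brown genes lost the call in at least 1 (7 genes), and no line crosses 0.

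A wider list held 53 further genes of glycolysis and its branches (isoenzymes, glycogen, pentose phosphates, pyruvate entry). After the filter 44 remained, of which 10 rose, 13 fell and 21 missed the threshold, with a median log2 fold change of -0.09. The shares were 22.7% higher and 29.5% lower, against 13.1% and 16.3% of all genes tested. Among genes at or above the members' median level, 18.3% rose and 28.8% fell, close to the shares of this list. Beside Bsg, the smallest adjusted p-values belonged to Pdk4, Hk3 and Gpd1l, all of which fell. Pdk4, a kinase that shuts pyruvate dehydrogenase during fat burning, fell by 1.58 (10.3 ± 1.63 CPM in MGT+shScd1 cells and 30.8 ± 3.24 CPM in MGT+shNT cells). Hk3, a hexokinase of white blood cells, fell by 2.37 on the log2 scale, and Gpd1l, a glycerol phosphate dehydrogenase, by 0.90. Pdk1, the hypoxia-inducible kinase of the same family as Pdk4, rose by 0.81, to 24.9 ± 1.73 CPM in MGT+shScd1 cells, against 14.2 ± 0.538 CPM in MGT+shNT cells. The insulin-responsive transporter Slc2a4 (0.62) and the muscle mutase Pgam2 (0.52) rose too. These 3 were chosen after their values were seen. Leaving out MGT+shScd1 replicate 1 gave 6 rises and 8 falls, and leaving out replicate 2 gave 5 and 9.

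Of 53 further genes of the hypoxia pathway tested, 15 rose, 15 fell and 23 did not pass, with a median of -0.05. Each share was 28.3%, against 13.1% higher and 16.3% lower over all genes tested. Among genes at or above the members' median level, the shares were 18.3% and 28.8%. The smallest adjusted p-values were those of Igfbp3, a binding protein of insulin-like growth factors (-1.39), the nuclear receptor Rora (-1.34), P4hb, the beta subunit of collagen prolyl hydroxylase (-0.87), and Tmem45a (-1.02), which all fell. P4hb thus fell to 583 ± 12.6 CPM in MGT+shScd1 cells, against 1065 ± 2.6 CPM in MGT+shNT cells, while the alpha subunit P4ha1 rose. Among the pathway's own parts, chosen after their values were seen, Arnt, the partner of both alpha subunits (-0.05, adjusted p = 0.559), Vhl, which binds the hydroxylated subunits (0.02, adjusted p = 0.885), Hif1an, the asparagine hydroxylase (-0.07, adjusted p = 0.442), and Egln2, a further prolyl hydroxylase (-0.05, adjusted p = 0.637), did not pass. Also chosen after their values were seen, Arnt2, a related partner subunit, rose (0.30, adjusted p = 0.0128), and so did Hif3a, a further alpha subunit, at low counts (1.66, adjusted p = 0.0235). Hif3a had 1.01 and 2.08 CPM in MGT+shScd1 cells and 0.533 and 0.420 CPM in MGT+shNT cells. Over these 53 genes, leaving out MGT+shScd1 replicate 1 gave 9 rises and 10 falls, and leaving out replicate 2 gave 10 and 9.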

How the data were processed

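The authors deposited 1 table of raw read counts per gene and library, with FPKM beside them. These FPKM equalled the count divided by the deposited gene length and library total for 100.0% of values, within 0.005. Tools listed in the submitters' processing notes are featureCounts, Subread 1.5.1, Trimmomatic 0.36 and SAMtools, and the build is mm10. No source used here gives the annotation release or the strand setting. Genes with near-identical copies or overlapping neighbours are therefore uncertain. Deposited gene starts equalled those of GENCODE M21 (GRCm38) for 2.78% of shared genes on the same chromosome, whereas gene widths equalled for 96.8%. The deposited coordinates thus did not match GRCm38, although the notes name mm10. Positions are therefore from GENCODE M21 and promoters from RefSeq (GRCm38.p6).

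Deposited counts were tested two-sided with edgeR 4.0.16 in R 4.3.3 (quasi-likelihood F test, TMM factors). The model held the group alone. Low genes were removed by filterByExpr (minimum count 10, minimum total 15), and Benjamini-Hochberg adjustment covered the 16234 genes left. All 37 genes passed the filter. CPM divide each count by the library total after TMM scaling. SE is the log2 fold change divided by the square root of its F. "Rose" and "fell" are used of genes at an adjusted p below 0.05. A simulation of this comparison gave a true difference to only 200 of 16234 genes, with 50 genes at each fold. The test recovered 16% at a fold of 1.25, 56% at 1.5, 64% at 2 and 82% at 4. In the data 29.3% of genes were called, and the adjustment is stricter when fewer genes differ. These rates therefore cannot be read as the share of true differences recovered in the data.

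Members and lists were chosen with earlier results of these data known. Values in every library were given for members called at 0.5 or more on the log2 scale in either direction, and for Slc2a1, Hk2, Gapdh, Pkm, Ldha, Hif1a, Epas1 and Vegfa. Of each further list the 4 called genes with the smallest adjusted p were named. Of the symbols listed, 1 had no row (Ero1l, beside its other name Ero1a). Deviations of same-numbered libraries from their group means correlated at 0.0077, so the numbers were not taken as pairs. Alternatives were RLE and upper-quartile factors, no filter, a replicate block, each library left out, and copies summed, the last chosen after seeing the data. DESeq2 1.42.0 and limma 3.58.1 were used too, the latter on log2(FPKM + 1) and log2(FPKM + 0.1). The limma tests covered 13084 genes after a filter on FPKM.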

Additional observations from a re-analysis of the deposited data

How the results depend on the processing

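Of the 23 called genes, 16 kept their call under all 12 alternatives, and none of the 23 changed sign. Of the genes that did not pass, 4 passed in at least 1 alternative (Gapdh, Ldha, P4ha2 and Pfkm). Genes called over the whole table numbered 4763, against 2861 with DESeq2, 3154 with limma on log2(FPKM + 0.1), and 2217 to 5331 with each library left out. Of these calls 44.6% were higher, against 55.4% with upper-quartile factors, 63.5% on log2(FPKM + 1) and 63.3% on log2(FPKM + 0.1), where the median of all genes lay at 0.054, 0.072 and 0.086. In the hypoxia-inducible factor group, 2 genes rose with the replicate block, in place of 4, and 2 to 4 with each library left out. That group's median of -0.15 was -0.051 on both FPKM scales, and the glycolysis median of 0.23 was 0.32 on log2(FPKM + 0.1). The replicate numbers were not shown to pair the libraries, and the block turned the calls of Egln3, P4ha1, P4ha2 and Pfkm (adjusted p = 0.033). Among non-members, DESeq2 left 6 glycolysis rises and 9 hypoxia falls, and limma left 8 glycolysis falls, 6 macrophage marker falls and 0 endothelial marker falls. The limma tests covered 13084 genes, those at 1 FPKM or more in at least 2 libraries. Markers below that, Vwf among them, were not tested there. Signs turned for 5 genes that did not pass. With each library left out, Aldoc ranged between -0.60 and 0.15, Ankrd37 between -0.21 and 0.0049, Car9 between -0.16 and 0.069, Pfkfb4 between -0.10 and 0.25 and Pfkp between -0.00096 and 0.17. Car9 had 0.0081 with upper-quartile factors, and 0.027 and 0.041 on the FPKM scales, where Ankrd37 had 0.00055 and 0.0016. The causes were not tested.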
